A study of Mus musculus with 70 samples.

Results

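RAB proteins are small GTPases that sit on the membranes of vesicles and organelles and direct their traffic. A RAB switches between a GTP-bound form on the membrane, where it recruits effector proteins, and a GDP-bound form. The protein GDI keeps the GDP-bound form in the cytosol. Exchange factors load GTP, GTPase-activating proteins end the active state, and geranylgeranyl transferase attaches the lipid anchor that every RAB needs to reach its membrane. In neurons the family serves synaptic vesicle release, endosomal recycling of receptors and the supply of new membrane to axons and dendrites.

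The family was taken from the cDNA array as all spots whose Name begins with RAB or holds the words "member RAS oncogene family", with the Names beginning with RAB6 left out. That gave 58 spots of 22824 probes and 37 Names of 15191, each represented by its brightest spot. Under the array's own names, some of them old (Rab1, Rab2), the 37 comprise 4 GTPases of secretory and synaptic vesicles, 9 of early and recycling endosomes, 6 of late endosomes, lysosomes and autophagy and 10 of endoplasmic reticulum (ER), Golgi and other routes. The remainder are the effectors rabphilin 3A and rabaptin 5, both subunits of geranylgeranyl transferase (Rabggta and Rabggtb), the RAB receptor Rabac1, the RAB-like Rabl3, Ran, and a "Rab-related GTP-binding protein" that the array does not name further.

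The animals were male mice of 2 lines bred from CD-1 stock for high (HAB) or low (LAB) anxiety-related behaviour, 10 weeks old and under basal conditions. LAB served as the reference, so a positive log2 HAB/LAB means a stronger signal in HAB. Tissue of 7 regions was micropunched: the paraventricular (PVN) and supraoptic (SON) nuclei of the hypothalamus, the basolateral (BLA), central (CeA) and medial (MeA) amygdala, the anterior cingulate cortex (Cg) and the nucleus accumbens (NAc), which included a minor part of the shell. The same 6 mice per line supplied every region, their amplified RNA was pooled per line and region, and each pair of pools was hybridized on 10 two-colour arrays, in 5 of which HAB carried Cy3 and in the other 5 Cy5. The 10 arrays of a region are therefore technical repeats of 1 HAB pool and 1 LAB pool, and a test over them compares the pools, not the lines. In such tissue punches, fewer cells of a type and less RNA per cell cannot be told apart.

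Between 0.0438% and 73.0% of all probes on an array channel were brighter than the empty spots of the same array. The weakest arrays came from the CeA and BLA, where no channel passed 37.8% and 32.7%. A probe was called above the empty spots when it exceeded them on at least 35 of the 70 channels of either line, which held for 6952 of all probes and for 20 of the 37 members. The other 17 members, among them Rab3B, Rab3C, Rab5A, Rab18, Rab27A and both effectors, are near the empty spots, and ratios near 0 for them carry little information. The regions themselves were recognisable only in part: the vasopressin (Avp) spot stood at 0.78 in the PVN and 0.76 in the SON on a log2 scale relative to the array median, against at most -0.44 elsewhere, while the oxytocin spot was near the empty spots in all regions. Prkcd, taken as a marker of the CeA, had its lowest level there (4.24, against 4.95 to 6.65 elsewhere). Of the NAc markers, Tac1 was highest in the NAc (4.55). Ppp1r1b (-0.45), Adora2a (-0.07) and Penk1 (0.95) were not highest there, and all were near the empty spots. Spot levels also fell into sets of regions: over all probes they correlated at 0.906 between BLA and CeA and at 0.921 to 0.959 among Cg, MeA, NAc and SON, but at 0.711 to 0.804 between these sets or with the PVN. The arrays of no region shared a scan day with those of another, so region and scan day cannot be told apart for levels.

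Whether HAB and LAB differ in RAB transcripts across the brain was asked by a test with 1 value per region. All regions came from the same mice, so the p-values of this test come out too small for the lines. No member passed the test over the 7 regions (limma, Benjamini-Hochberg over all 22824 probes), where 0.302% of all probes did, and 2 of 37 members (5.41%) had an unadjusted p under 0.05 against 6.33% of all probes, which is no more than the background. The median member lay at -0.0013 log2 HAB/LAB and the median of all probes at -0.00059, and 18 of 37 members (48.6%) were above 0 against 49.7% of all probes. The 2 members were Rab3C and rabphilin 3A. Rab3C, a synaptic vesicle GTPase, had a mean of 0.32 (SE 0.081, n = 7 regions, limma adjusted p = 0.132) and was above 0 in 7 of 7 regions, from 0.07 in the MeA to 0.53 in the NAc. Rabphilin 3A, the calcium-binding effector of Rab3 proteins, had a mean of 0.23 (SE 0.079, n = 7, limma adjusted p = 0.5) and was also above 0 in 7 of 7 regions, from 0.03 in the MeA to 0.41 in the CeA. Both spots were dim: of 70 channels per line, Rab3C exceeded the empty spots on 17 of HAB and 10 of LAB, and rabphilin 3A on 4 of each. A single sign in 7 of 7 regions was found for 2.14% of all probes.

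Grouped by compartment, the mean differences over regions remained small. The 4 GTPases of secretory and synaptic vesicles (Rab3A, Rab3B, Rab3C, Rab27A) had a median of 0.10, the 9 of early and recycling endosomes -0.07, the 6 of late endosomes, lysosomes and autophagy 0.03, and the 10 of ER, Golgi and other routes -0.0026. None of these groups held a member past the test. Among the 20 members above the empty spots, the highest means were those of the Rab-related GTP-binding protein (0.14, SE 0.093), Rab10 (0.14, SE 0.084), Rab3A (0.10, SE 0.085), Ran (0.07, SE 0.086) and Rab11a (0.06, SE 0.10). The lowest were those of Rab23 (-0.22, SE 0.14), Rab21 (-0.16, SE 0.088), Rab25 (-0.13, SE 0.099), Rab2 (-0.07, SE 0.097) and Rabggta (-0.05, SE 0.089). Except for Rab21, which was above 0 in 1 of 7 regions, each of these 10 took both signs in at least 2 regions, so the means over regions hide values of opposite sign. The 5 brightest members relative to their arrays were Rab3A, Rab14, Rab1, Rab23 and Rab10.

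**Figure D1:**
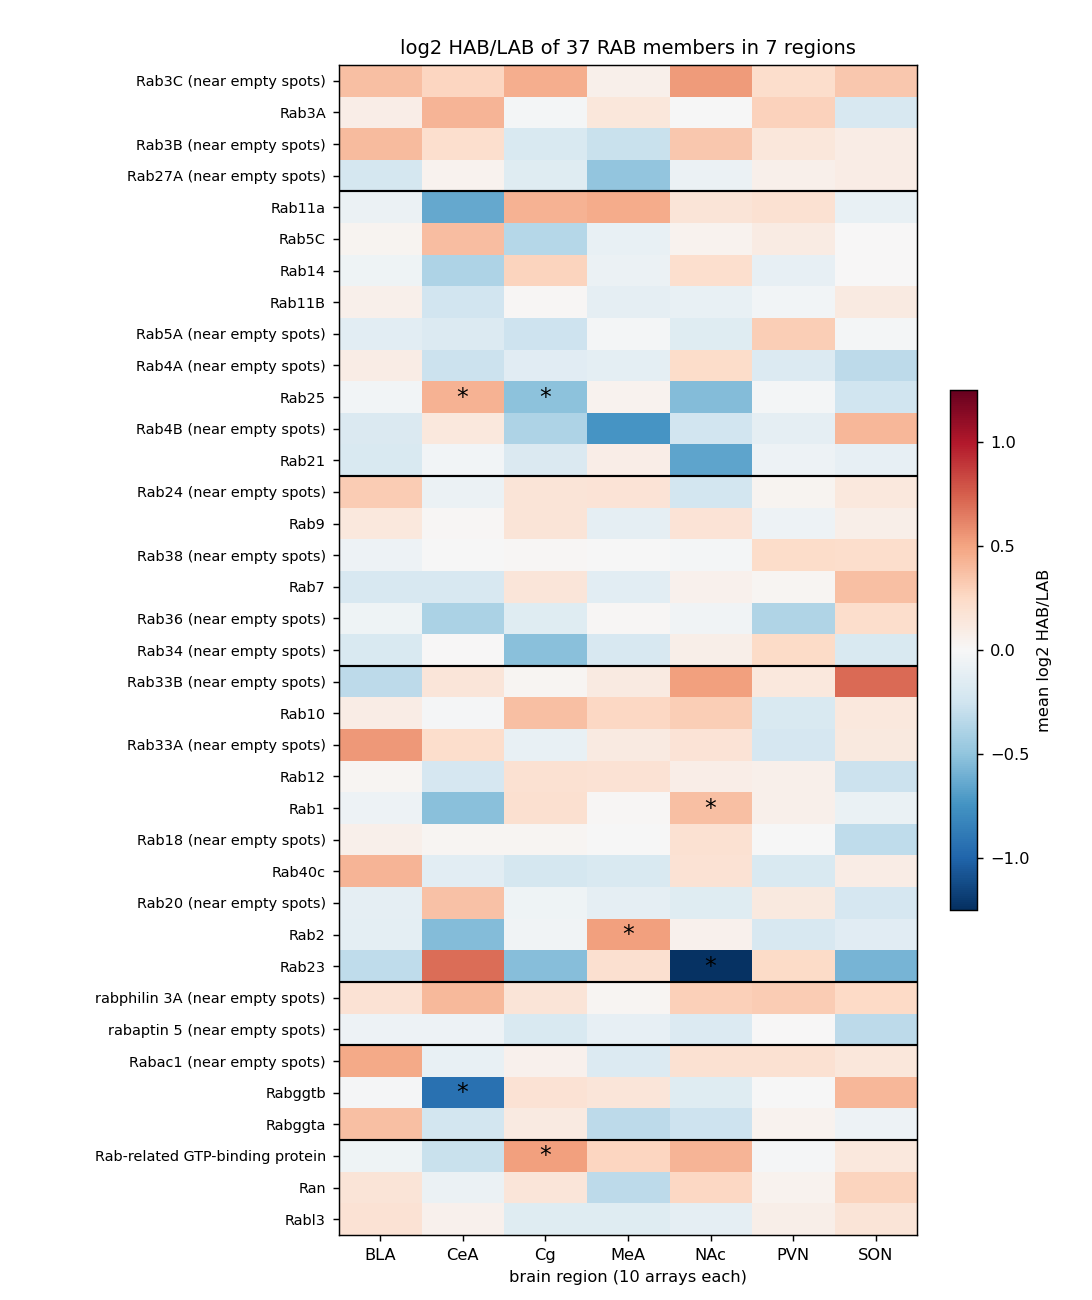
Mean log2 HAB/LAB of the 37 members (rows, grouped by compartment and separated by lines: secretory and synaptic vesicles, early and recycling endosomes, late endosomes and lysosomes, ER, Golgi and other GTPases, effectors, prenylation, other) in 7 regions (columns, 10 arrays each), red for higher in HAB and blue for lower. Stars mark the 7 member and region pairs with at least 1.3-fold and the same direction on 10 of 10 arrays. Colours change sign along most rows, and the darkest cell is Rab23 in the NAc at -1.23.

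The difference between the pools of a region was counted when it reached 1.3-fold and all 10 arrays pointed the same way. Of the 259 member and region pairs, 7 met this, 4 higher and 3 lower in HAB, where 0.956% of all probe and region pairs did, and 7 of the 140 pairs of members above the empty spots did (5%), where 2.56% of the pairs of all such probes did. The 7 pairs came from 6 of the 37 members (16.2%), and 5.13% of all probes were counted in at least 1 region. All 6 were among the 20 members above the empty spots (30%), where 12.9% of all such probes were counted. The pairs were Rabggtb and Rab25 in the CeA (percentage of all probes counted there 1.01%), Rab25 and the Rab-related GTP-binding protein in the Cg (1.59%), Rab2 in the MeA (0.587%), and Rab1 and Rab23 in the NAc (1.99%). Among probes above the empty spots these shares were 2.66% in the CeA, 4.72% in the Cg, 1.44% in the MeA and 5.71% in the NAc. No member was counted in the BLA (0.223%), PVN (0.736%) or SON (0.556%).

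Limma over the 10 arrays of a region, adjusted over all probes, called 1 of the 259 pairs, Rab23 in the NAc, against 0.364% of all pairs (1.27% in the NAc, 0.386% in the PVN and 0.0701% in the CeA). Refitted on the 6952 probes above the empty spots alone, it called 16 of 140 pairs, against 6.02% of all pairs in that fit. The 16 included all 7 counted pairs. Beside these, Rab11a (-0.64), Rab23 (0.70), Rab3A (0.42) and Rab2 (-0.55) were called in the CeA, Rab11a in the Cg (0.44), Rab25 (-0.55), the Rab-related GTP-binding protein (0.43) and Rab21 (-0.66) in the NAc, and Rab3A in the PVN (0.29). Of the 16, 6 fell in the CeA, 5 in the NAc, 3 in the Cg and 1 each in the MeA and PVN. The refit also called most probes in these regions, 9.44% in the CeA, 13.8% in the NAc and 10.5% in the Cg, against 1.96% in the MeA, 4.76% in the PVN, 1.17% in the SON and 0.503% in the BLA. Rab3A, the most abundant RAB of synaptic vesicles, was above 0 on 10 of 10 PVN arrays, from 0.13 through a median of 0.25 to 0.62, but at 1.22-fold stayed under the fold required for the count.

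Whether the difference between the HAB and LAB pools varied by region was tested with an F-test over the 7 region means. The test takes its error from repeat arrays of the same pools, so it compares pools and not mice. It called 8 of 37 members (21.6%), where it called 6.10% of all probes. All 8 were among the 20 members above the empty spots (40%), where it called 17.6% of all probes above them. By compartment these were 3 of 9 GTPases of early and recycling endosomes (Rab11a, Rab14, Rab25), 3 of 10 of ER, Golgi and other routes (Rab1, Rab2, Rab23), 1 of 3 prenylation genes (Rabggtb) and the Rab-related GTP-binding protein. None of the 4 secretory and 6 late endosomal GTPases and neither effector passed. Of these, only Rab3A, Rab7 and Rab9 were above the empty spots, so the lack of calls says little about these compartments. The CeA held the lowest region mean of 6 of the 8 and the highest of Rab23 and Rab25. All probes above the empty spots also leaned down in the CeA, with a median of -0.06 and 41.3% above 0. The 20 members above the empty spots had a median of -0.17 there and 30% above 0. How often the CeA was the extreme region among all probes past the F-test was not tested.

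**Figure D2:**
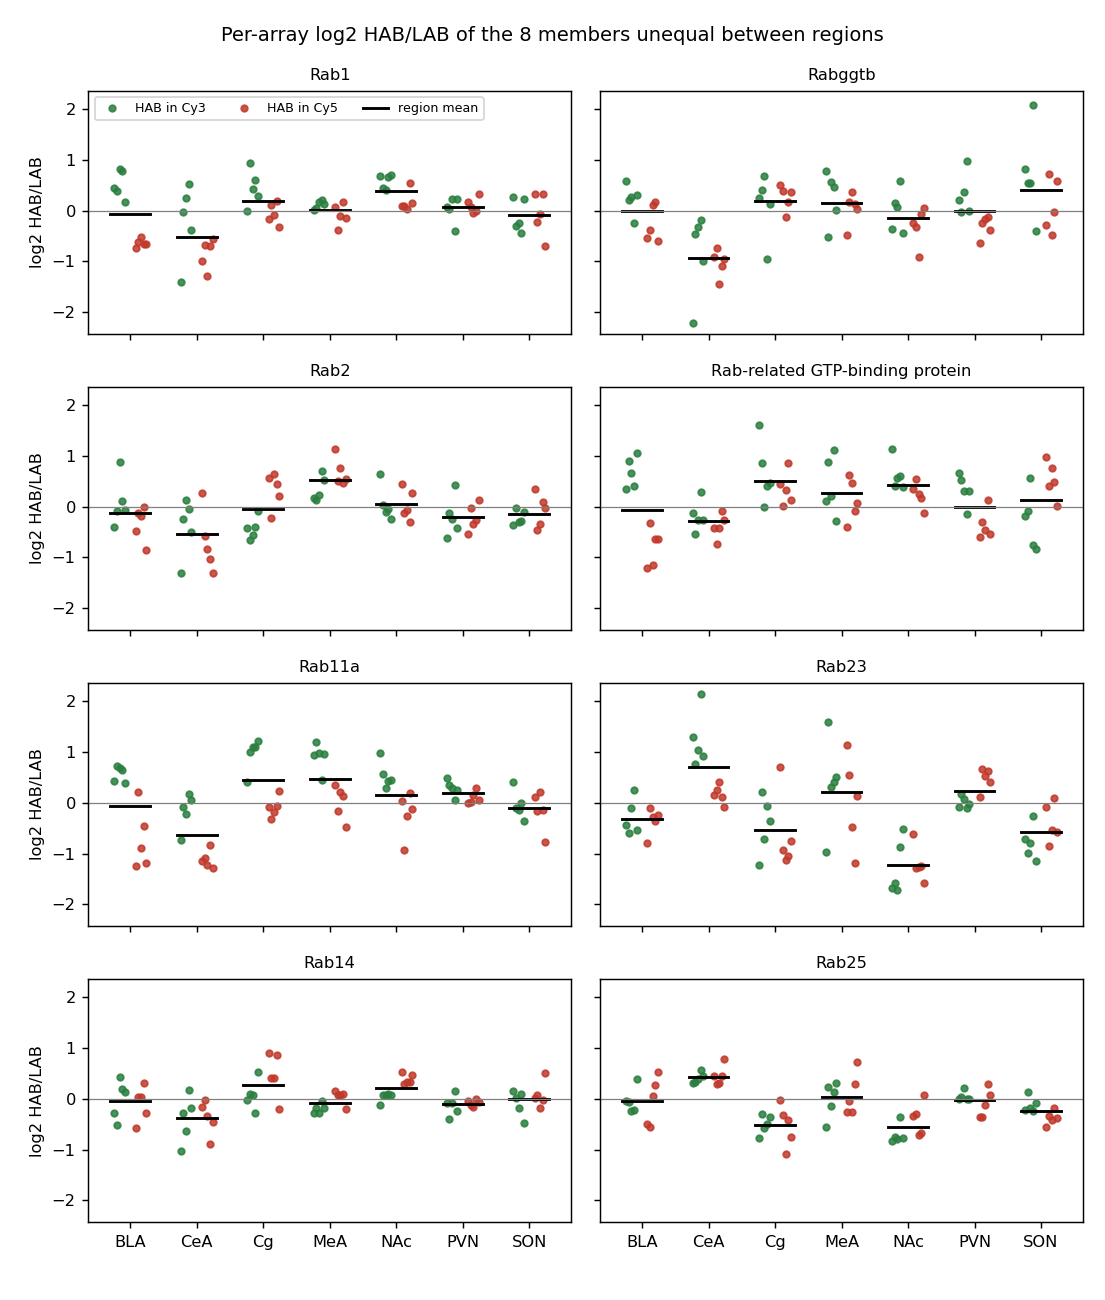
Log2 HAB/LAB on every array (points, green for HAB in Cy3 and red for HAB in Cy5) with the region mean (bar) for the 8 members past the F-test, by region (x axis, 10 arrays each). In the NAc all Rab23 arrays lie below 0, in the CeA all Rabggtb arrays do, and Rab25 lies above 0 on 10 of 10 CeA arrays and below 0 on 10 of 10 Cg arrays.

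Rab23, a GTPase best known for holding back Sonic hedgehog signalling at the primary cilium, varied most (F-test adjusted p = 4.97e-08). In the NAc its 10 arrays ran from -1.73 through a median of -1.27 to -0.51, so none reached 0. The HAB pool was 2.35-fold lower there (log2 -1.23, SE 0.16, limma adjusted p = 0.0011). This spot was dim in the NAc, where of 10 channels per line 3 of HAB and 9 of LAB exceeded the empty spots, so the size of the fold is uncertain. In the CeA the values ran from -0.09 through 0.58 to 2.14, with 9 of 10 arrays above 0 and a mean of 0.70 (SE 0.16, limma adjusted p = 0.0945). The CeA value depended on the dye, at 1.23 when HAB carried Cy3 and 0.17 when it carried Cy5. The remaining regions lay between, at -0.58 in the SON, -0.53 in the Cg, -0.32 in the BLA, 0.20 in the MeA and 0.24 in the PVN.

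The level of the Rab23 spot itself differed between regions far more than between lines. Relative to the array median, on a log2 scale, it stood at 6.38 in the BLA, 5.60 in the CeA and 6.50 in the PVN, but at 0.69 in the Cg, -0.05 in the MeA, 0.89 in the NAc and 1.21 in the SON. The gap of 4.39 between the dimmest of the bright regions and the brightest of the dim ones was matched or exceeded by 5 other probes, all printed in 1 print-tip block other than that of Rab23. A gap of at least 2 was found for 60 probes in 19 of the 48 print-tip blocks, 29 of them in the 2 fullest blocks, and the block of Rab23 is among those 2. The 4 dim regions are also those whose levels correlated most closely over all probes, while the PVN was no closer to BLA and CeA than to them, and region and scan day cannot be told apart for this level. Within Cg, MeA, NAc and SON the F-test still called Rab23 (adjusted p = 0.0198), as it did between BLA and CeA (adjusted p = 0.0225).

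**Figure D3:**
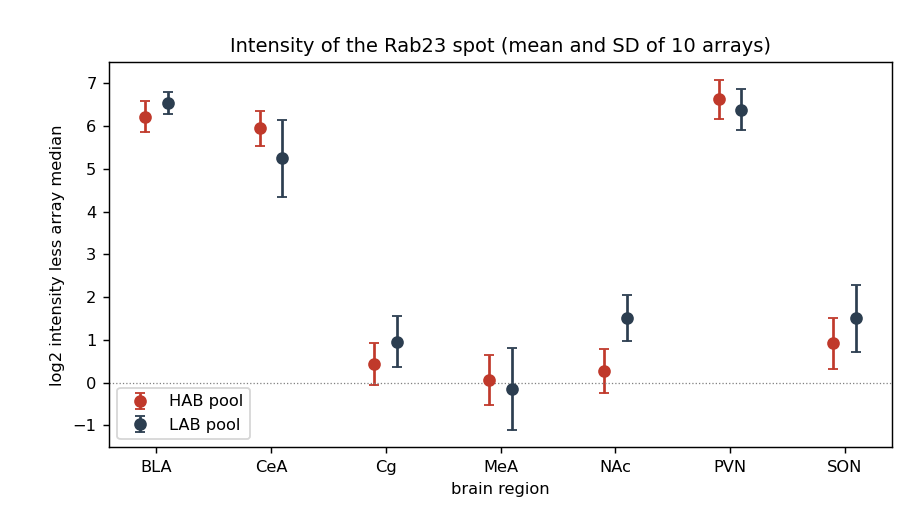
Level of the Rab23 spot in the HAB and LAB pools (points, mean; bars, SD of 10 arrays) as log2 intensity less the median of its array, by region. BLA, CeA and PVN lie above 5 and the other 4 regions between -0.15 and 1.51, and in the NAc the pools stand at 0.27 (HAB) and 1.51 (LAB).

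Rab25, a relative of Rab11 known from the recycling endosomes of epithelia, followed a similar course at a smaller scale (F-test adjusted p = 1.32e-05). In the CeA all 10 arrays were above 0, from 0.30 through a median of 0.42 to 0.78 (mean 0.44, 1.35-fold, SE 0.13, limma adjusted p = 0.193). In the Cg all 10 were below 0, from -1.08 through -0.46 to -0.03 (mean -0.51, 1.42-fold lower, SE 0.15, limma adjusted p = 0.202). That the CeA and Cg arrays do not overlap follows from these opposite signs and is no further result. The NAc mean was -0.55 with 9 of 10 arrays below 0, and the BLA, MeA and PVN means lay within 0.05 of 0. Unlike that of Rab23, the Rab25 spot had nearly the same level in all regions, 1.72 to 2.40, and the dye orientations gave like means in the CeA (0.41 and 0.46) and the Cg (-0.50 and -0.52).

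Rabggtb is the catalytic beta subunit of RAB geranylgeranyl transferase, the enzyme that lipidates the whole family. In the CeA its arrays ran from -2.21 through a median of -0.93 to -0.19, all below 0. The mean of -0.93 corresponds to 1.91-fold lower signal in the HAB pool (SE 0.19, limma adjusted p = 0.0873 over all probes and 0.0054 over probes above the empty spots). Of 10 CeA channels per line, 5 of HAB and 8 of LAB exceeded the empty spots, so the size of the fold is uncertain. The 8 CeA arrays of a single scan day gave -0.76, again all below 0. No other region came near this value: the means were -0.15 in the NAc, -0.01 in the BLA, -0.0019 in the PVN, 0.15 in the MeA, 0.18 in the Cg and 0.41 in the SON, where a single array reached 2.09. The F-test gave an adjusted p of 0.000539. The alpha subunit Rabggta, whose product works in the same heterodimer, was at -0.23 in the CeA with 4 of 10 arrays above 0 and did not pass the F-test (adjusted p = 0.397). Its spot exceeded the empty spots there on 0 HAB channels and 1 LAB channel of 10, so a change in the CeA was not detectable.

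Rab1 and Rab2 act in the early secretory pathway, Rab1 in transport from the ER to the Golgi and Rab2 in the traffic that returns. In the NAc the Rab1 arrays ran from 0.03 through 0.42 to 0.71 and all 10 were above 0 (mean 0.38, 1.30-fold, SE 0.12, limma adjusted p = 0.183). In the CeA 8 of 10 were below 0, from -1.41 through -0.62 to 0.52, with a mean of -0.52. The ranges overlap only in the upper CeA arrays, 2 of which were above 0, and the F-test gave an adjusted p of 0.0027. In the BLA the Rab1 mean of -0.06 was the average of 0.52 when HAB carried Cy3 and -0.64 when it carried Cy5.

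Rab2 was counted in the MeA, where the arrays ran from 0.13 through 0.51 to 1.13 and all 10 were above 0 (mean 0.52, 1.43-fold, SE 0.14, limma adjusted p = 0.364). In the CeA it went the other way, from -1.32 through -0.54 to 0.28, with 8 of 10 arrays below 0 and a mean of -0.55. The 5 remaining regions lay between -0.20 and 0.05. The F-test gave an adjusted p of 0.00201, which rose to 0.0723 when the arrays of replicate number 5 were left out.

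Rab11a and Rab14 serve recycling endosomes and the exchange between Golgi and endosomes. Rab11a had its lowest mean in the CeA (-0.64, SE 0.14), with arrays from -1.29 through -0.78 to 0.18 and 8 of 10 below 0. It was highest in the MeA (0.46, SE 0.14, 8 of 10 arrays above 0) and the Cg (0.44, SE 0.15, 6 of 10). In the PVN all 10 arrays were above 0, but at a mean of 0.19. The F-test adjusted p was 5.57e-06. Rab11a also showed a large dye difference, since its mean over regions was 0.44 when HAB carried Cy3 and -0.31 when it carried Cy5, a gap larger than that of 95.9% of probes. Among the 37 members only Ran, the GTPase of nuclear transport whose Name carries the family phrase, had a larger one, 0.63 against -0.49. Rab14 was lower in the CeA (-0.38, from -1.03 through -0.32 to 0.18, 9 of 10 arrays below 0) and higher in the Cg (0.28, 7 of 10 above 0) and the NAc (0.21, 9 of 10 above 0). Its F-test adjusted p of 0.0314 lay between 0.109 and 0.24 when any replicate number was left out.

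The Rab-related GTP-binding protein was counted in the Cg, where the arrays ran from 0.0011 through 0.42 to 1.61 (mean 0.52, 1.43-fold, SE 0.18, limma adjusted p = 0.274). The lowest of these was barely above 0, and the highest was the only array with HAB in Cy3 among the 6 Cg arrays of a single scan day. These 6 had a plain mean of 0.57, or 0.99 with the dye orientations weighted equally, where that array counts as much as the other 5 together. The NAc mean was 0.43 with 9 of 10 arrays above 0, and the CeA mean -0.28 with 9 of 10 below. This spot was dim in the CeA, where of 10 channels per line 3 of HAB and 5 of LAB exceeded the empty spots. In the BLA the dyes gave 0.67 and -0.79. Its F-test adjusted p of 0.0213 lay between 0.0431 and 0.187 when a replicate number was left out, under 0.05 only without number 5.

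The F-test was repeated, after the values were seen, within regions whose arrays were alike. Within Cg, MeA, NAc and SON it called 2 members, Rab23 and the recycling GTPase Rab4B (adjusted p = 0.0478), against 1.35% of all probes. Rab4B is near the empty spots, which it exceeded on 19 channels of HAB and 20 of LAB, and its means ran from -0.74 in the MeA to 0.42 in the SON. Between BLA and CeA only Rab23 was called, against 0.210% of all probes. The other members past the 7-region F-test were called in neither set: Rab1, Rab2, Rab11a, Rab14, Rab25, Rabggtb and the Rab-related GTP-binding protein. For each of them the extreme region means were those of the CeA and of a region among Cg, MeA, NAc and SON. Neither set holds that contrast, so the repeat cannot decide whether these differences hold. Between BLA and CeA, Rabggtb had an unadjusted F-test p of 0.000706 (adjusted p = 0.16).

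Several profiles ran alongside those of cell type markers. Over the 7 region means, which share the same mice and arrays, Rab23 and Rab25 correlated at 0.963 and 0.962 with the brightest spot of Mobp and at 0.942 and 0.948 with that of Cnp, both genes of myelinating oligodendrocytes. Cnp was at 0.69 in the CeA, -0.99 in the Cg and -1.36 in the NAc, and Mobp at 0.72, -0.89 and -1.21. The Cnp and Mobp spots lie next to each other in a print-tip block that holds neither Rab23 nor Rab25. Another myelin spot took the opposite course, since the brightest Mbp spot was at -0.40 in the CeA, 0.64 in the Cg and 0.46 in the NAc. Of the 6 oligodendrocyte markers, 4 were above the empty spots and all 4 passed the F-test, and the list median was -0.12 in the CeA, 0.21 in the Cg and 0.14 in the NAc.

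Rab1, Rab14 and the Rab-related GTP-binding protein instead resembled the neuronal marker Snap25, a SNARE of synaptic vesicle fusion, with correlations of 0.896, 0.915 and 0.944, and ran opposite to Cnp at -0.854, -0.942 and -0.818. Snap25 was at -0.41 in the CeA, 0.48 in the Cg and 0.40 in the NAc. Of the 4 neuronal markers 2 were above the empty spots and 1 passed the F-test, and the list median was -0.23, 0.21 and 0.11 in these regions. The brightest spot of Gja1, a gap junction gene of astrocytes, had a like course at -0.58, 0.16 and 0.57 (F-test adjusted p = 2.07e-05) and correlated with these 3 members at 0.936, 0.893 and 0.886, so the likeness is not particular to the neuronal marker. A correlation of at least 0.8 in size was found for 25.8% (Cnp) and 32.3% (Snap25) of all probes past the F-test, and for 6.22% and 7.24% of all probes. Of the 8 members past the F-test, 5 reached it with Cnp and 5 with Snap25. None of the 6 microglial markers was above the empty spots, against 5 of 6 astrocytic markers, of which 2 passed the F-test. The part of cell composition in the RAB profiles was not tested.

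**Figure D4:**
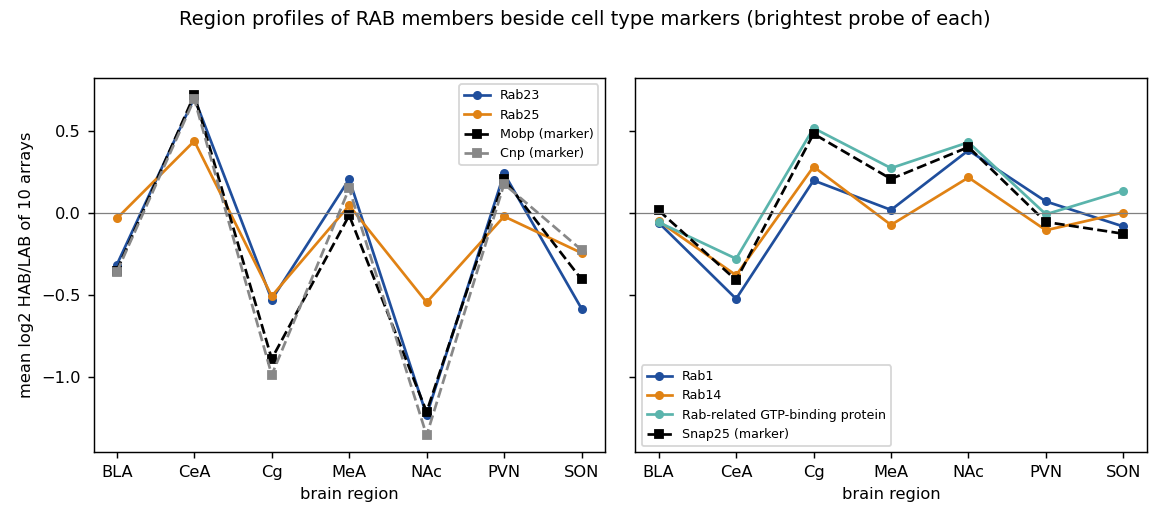
Mean log2 HAB/LAB of 10 arrays by region for Rab23 and Rab25 beside Mobp and Cnp (left) and for Rab1, Rab14 and the Rab-related GTP-binding protein beside Snap25 (right), each by its brightest spot. The left profiles peak in the CeA (0.44 to 0.72) and drop in the Cg and NAc, and the right ones have their lowest point in the CeA (-0.28 to -0.52).

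Other spots of the same members gave a check where they existed. Of the 15 members with 2 or more spots, none had spots whose means over regions differed by more than 0.5; the widest differences were 0.30 for Rab2 and 0.26 for Rab10. Within regions the picture was mixed. A second Rab1 spot, also above the empty spots, was above 0 on 10 of 10 NAc arrays (mean 0.345) and at -0.474 in the CeA, and passed the F-test (adjusted p = 0.00953), whereas the remaining Rab1 spots were at 0.351 and -0.255 in the NAc and at 0.109 and 0.121 in the CeA. The second Rabggtb spot was at 0.491 in the CeA and the second Rab2 spot at 0.78 in the CeA and -0.0144 in the MeA, but both were near the empty spots. The second spots of Rab11a and Rab14 were near the empty spots too. Rab23, Rab25 and the Rab-related GTP-binding protein had 1 spot each. A second spot of Rab21, an endosomal GTPase of integrin traffic, passed the F-test (adjusted p = 0.0291) with -0.65 in the CeA. The brightest Rab21 spot was at -0.03 there, but exceeded the empty spots in the CeA on 1 channel of HAB and 2 of LAB out of 10 each, so it is no check on the second. Spots of long cDNA can also pick up related family members, so values of close relatives such as Rab11a, Rab11B and Rab25 are uncertain to that extent.

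**Figure D5:**
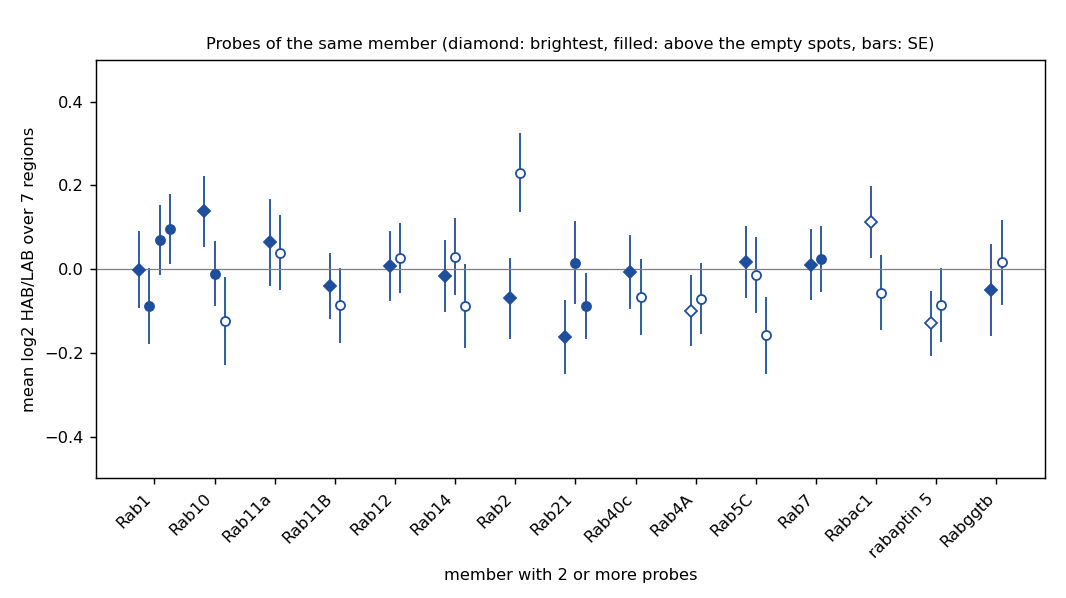
Mean log2 HAB/LAB over 7 regions (points) with its SE (bars) for every spot of the 15 members with 2 or more spots; diamonds are the brightest spot and filled symbols lie above the empty spots. Every point lies between -0.17 and 0.24, and no member has spots further apart than 0.30.

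The other genes of the RAB cycle were sparse on the array and none was called. Among the GDI and escort proteins, Gdi2 was at -0.07 over regions and the escort protein Chm, which presents RABs to geranylgeranyl transferase, at -0.09. TBC-domain GTPase-activating proteins were represented by 2 of 28 (Tbc1d8 -0.12, Evi5 -0.05), exchange factors by 5 of 23 (median -0.02), effectors and tethers by 13 of 39 (median -0.02) and HOPS and TRAPP tethering subunits by 4 of 17 (median 0.04). Uso1, a Golgi tether, had the lowest mean of the effectors at -0.13, and the HOPS subunit Vps16 the highest of the tethering subunits at 0.14. In none of the 5 lists did a gene pass the test over regions or the F-test, or meet the count in any region. Of all probes, 0.302% passed the test over regions, 6.10% the F-test, and 5.13% met the count in at least 1 region. Signal was short here too: 3 GDI and escort genes, 2 exchange factors, 3 effectors and tethers and 2 tethering subunits were above the empty spots. The spots of Tbc1d8, Evi5, Uso1 and Vps16 were not. Chm came closest in the F-test (adjusted p = 0.0689), followed by the sterol-binding Rab7 effector Osbpl1a (adjusted p = 0.0746), and both spots were above the empty spots.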

How the data were processed

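RNA of 6 HAB and 6 LAB mice was amplified, pooled per line and region and hybridized in both dye orientations to 70 two-colour arrays of 24192 spots. For each array the authors deposited scanner intensities (spot and local background, linear, no normalization) and, per the file headers of a second table, normalized log2 ratios, used as an alternative. The log2 ratios correlated positively with HAB/LAB from the scanner on every array, so their direction is settled. Dyes were read from the scan headers, on 3 arrays from the name of the scan image.

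Control and empty spots (1368) were left out. In limma 3.58.1 (R 4.3.3) intensities were background corrected (normexp, offset 50), normalized by loess over 40% of spots, centred on the median of each of 48 print-tip blocks, and turned to log2 HAB/LAB. Above the empty spots means over the median plus 2 median absolute deviations of the array's 1170 empty spots, a level that 10.0% of the empty spots themselves passed. The 10 arrays were averaged within and then over dye orientations. Tests were an intercept over 7 region means, limma over the 10 arrays with a dye term, and an F-test over region means, with Benjamini-Hochberg adjustment over all probes and a threshold of 0.05. The number of arrays limits the precision between pools, and the single pool per line and region limits what can be said of the lines. Same-numbered arrays were checked for pairing and found unpaired. The statistics were tested on simulated data.

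Members, lists and tests were chosen with earlier results of these data known. Named were members passing a test or counted in a region, the 5 highest and 5 lowest means above the empty spots, the 5 brightest, members whose probes differed by over 0.5, and up to 4 genes per pathway list. Background, loess, filter, dye, replicate, region and scan day alternatives were tried. No protein or promoter sequences were used here, and values of some genes in the lists are not reported here.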

Additional observations from a re-analysis of the deposited data

Results flagged for a closer look

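For 8 members the difference between the pools varied between regions beyond the spread of the arrays (limma F-test over 7 regions, adjusted p). The values were 4.97e-08 for Rab23, 5.57e-06 for Rab11a, 1.32e-05 for Rab25, 0.000539 for Rabggtb, 0.00201 for Rab2, 0.0027 for Rab1, 0.0213 for the Rab-related GTP-binding protein and 0.0314 for Rab14. The test compares 1 pair of pools per region, and regions differ in scan day as well as in tissue.

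For these 8 members the 10 arrays of each region were searched for a single array far from the others, in 56 groups, and 3 were found where chance marks about 1 in 20 groups. Rabggtb in the Cg had a lowest array at -0.947 with the next at -0.128. Rabggtb in the SON had a highest array at 2.09 with the next at 0.827. Rab1 in the PVN had a lowest array at -0.394 with the next at -0.0495. All 3 were the array of replicate number 4 with HAB in Cy3 of their region, and none of these 3 groups was counted as a difference between pools.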

How the results depend on the processing

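Over 7 regions no member was called, and this held under each alternative but 3: 1 member with HAB in Cy3 only (Ran, adjusted p = 0.023), 1 in an array-level fit with the replicate number as a block (Rab3C, adjusted p = 0.0123) and 2 in that fit without the block (Rab3C and Rab23), an alternative added after seeing the data. Leaving out each replicate number in turn left 0 members. The 7 counted pairs became 2 at 1.5-fold and 18 when 9 of 10 arrays sufficed, and ran from 8 to 13 without each replicate number, where 8 of 8 arrays were required. The 1 pair called by limma within a region became 9 in the authors' table, in which 162 pairs had values, and 16 among probes above the empty spots; without each replicate number it stayed at 1. The 8 members past the F-test became 11 with print-tip loess, 10 among probes above the empty spots, 2 within Cg, MeA, NAc and SON and 1 between BLA and CeA, both added after seeing the data, and 6 without any of the 5 replicate numbers. Rab14 also missed the F-test threshold in the authors' table (adjusted p = 0.157), and there Rab1 in the NAc (0.34) and Rab2 in the MeA (0.52) were no longer counted, nor was the Rab-related GTP-binding protein in the Cg (0.54) after print-tip loess. Rab1 in the NAc dropped under 1.3-fold without replicate numbers 1, 4 or 5. Leaving out, after seeing the data, the smaller scan day of BLA, CeA and Cg gave 9 pairs and 6 members past the F-test, and leaving out each region's array with the fewest probes above the empty spots gave 10 pairs and 8 members. The 7 counted pairs kept their sign in each of the 9 alternatives run for them. Over regions 23 of the 37 members took opposite signs in the 2 dye orientations, and 21 of 111 values of the larger scan day of BLA, CeA and Cg differed in sign from those of all arrays, among them Rabggta in the CeA (0.03) and Rab1 in the Cg (-0.03). The causes of these shifts were not tested.

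Same-numbered arrays of opposite dye correlated between -0.0797 and 0.126 in their deviations from the region means, and 1 of 35 pairs exceeded 0.1, so the numbers do not pair the arrays. With the replicate block the F-test called 8 members and limma within a region 1 pair. Signal limits the rest: 17 of 37 members were near the empty spots.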
